A study of Capra hircus with 6 samples.

Results

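The genes described here encode enzymes that add or remove acetyl and methyl groups on histones, other proteins and DNA, together with bromodomain readers named BRD. They were taken from the deposited gene table by name: HDAC, SIRT, KDM, KMT, KAT, SETD, BRD, DNMT, TET, EZH and PRMT followed by the usual number and letter, in the identifier or in the gene symbol. This gave 89 of the 15944 genes in the table, 81 by identifier and 8 by symbol only. The exact forms asked for left out some genes of these families, KAT14 and KDM8 among them, which are counted in other lists below. The choice used names and no measured value. The cells were secondary hair follicle dermal papilla cells (SHF-DPCs), the mesenchymal cells at the base of the follicle that grows cashmere, kept as primary cultures of wild type. Per the study's methods they came from scapular skin of Albas cashmere goats aged 3 years in the growth phase of the coat, and were used between passages 4 and 7. The ATRA group received 100 µM all-trans retinoic acid for 24 h, a dose the study picked from a concentration series, and the Control group received no ATRA. Each group had 3 poly(A) RNA-seq libraries, all labelled as batch 1. RNA-seq drew on 3 animals, and whether libraries with the same number came from the same animal was not stated. The p-values below therefore measure the spread between these libraries only.

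Histone acetyltransferases (KATs) acetylate lysines, deacetylases (HDACs and sirtuins) take the acetyl group off, and bromodomain proteins of the BET family bind the acetylated tails and help RNA polymerase to elongate. Lysine methyltransferases and demethylases write and erase methyl marks that accompany active or silent genes, while DNMT and TET enzymes methylate cytosine and oxidise the methyl group. Retinoic acid acts through nuclear receptors that exchange corepressor complexes holding an HDAC for coactivators with acetyltransferase activity, and the dermal papilla in turn signals to the follicle's epithelium through the hair cycle.

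Library totals ran from 36887160 to 38012771 counts in the Control group and from 35532339 to 36870939 with ATRA. A normalized CPM below is the usual CPM taken on library sizes after trimmed-mean (TMM) scaling, and 1 count was worth between 0.0227 and 0.0322 of that unit. The mean TMM factor was 0.847 in the Control libraries and 1.18 in the ATRA libraries, so directions near 0 depend on the scaling. Scaled by library size alone, the median log2FC of all 12588 genes tested was 0.52 in place of 0.04. The summed level of the 8 dermal papilla markers was between 7824 and 8726 normalized CPM in Control and between 49.2 and 55.5 in ATRA. ACTA2 and VCAN made up nearly all of it in Control, and PROM1 (CD133), ALPL and CORIN were at or near 0 in every library. The 5 mesenchymal markers summed to between 47700.2 and 49673 in Control and between 2394 and 2498 in ATRA. Keratinocyte markers summed to at most 0.709 normalized CPM in any library. The 3 endothelial markers went from at most 0.371 to between 5.24 and 8.003, nearly all of it PECAM1, and the 2 of 3 leukocyte markers listed went from 2.60 to 5.70 in Control to 10.6 to 11.8 in ATRA. Of 4 melanocyte markers PMEL was listed, at 3.80 to 4.26 and 1.97 to 2.34. What part these shifts have in the results below was not tested. In bulk libraries, fewer cells of a type and less RNA per cell cannot be told apart.

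A smaller share of the chromatin enzymes and readers than of all genes passed both thresholds downwards. Of the 87 with enough counts to test, 10 rose and 6 fell past both thresholds of an absolute log2FC above 1 and an adjusted p under 0.05 (edgeR's quasi-likelihood test with Benjamini-Hochberg adjustment over all genes). The background was 13.7% of all genes tested for rises and 17.3% for falls, against 11.5% and 6.90% of these genes. In either direction 18.4% passed, against 31.0% of all genes. By adjusted p alone 46 rose (52.9%, background 40.9%), 22 fell (25.3%, background 38.7%) and 19 did not pass. These background shares apply to every family and partner list below. Scaled by library size alone, 26 rose and 2 fell past both thresholds, and over all genes 3389 and 1471 in place of 1729 and 2173. The 3 Control values lay apart from the 3 ATRA values in 71 genes, 81.6%, close to the background of 80.1%. The median log2FC was 0.21 over the 87 genes and 0.04 over all genes. KDM4D and PRMT8 were not tested: KDM4D had at most 2 counts in any library, and PRMT8 had 4 counts in 1 ATRA library and 0 in all others.

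**Figure D1:**
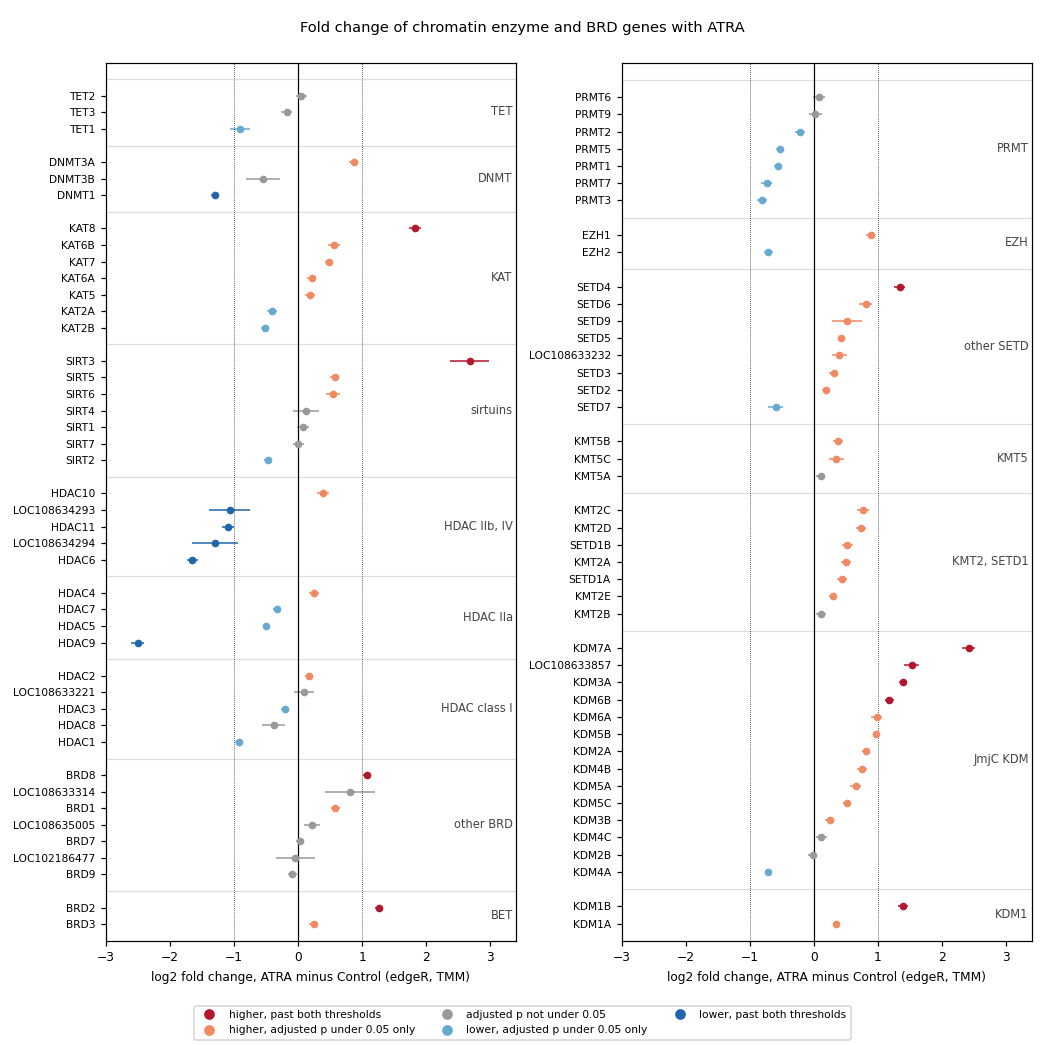
Each point is the log2FC (ATRA minus Control, edgeR with TMM scaling) of 1 of 86 tested genes, with its standard error as a bar, grouped by enzyme family, and dotted lines mark -1 and 1. Lysine demethylases and methyltransferases lie mostly to the right of 0 and HDACs and PRMTs mostly to the left, and with library size alone 10 genes near 0 change sign, HDAC3, HDAC7, KAT2A, PRMT2 and SIRT2 among them.

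**Figure D2:**
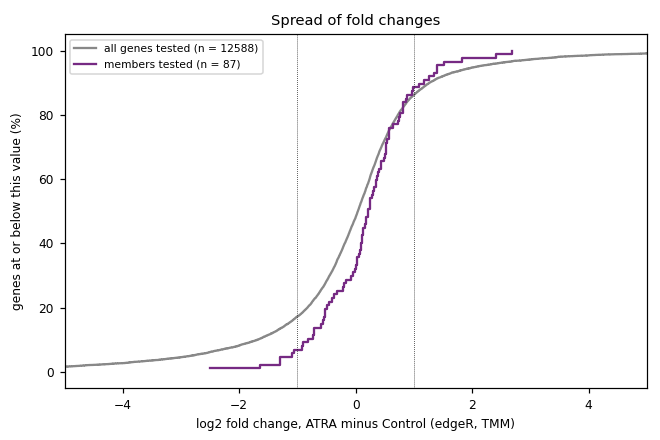
Cumulative share of genes (%) by log2FC (ATRA minus Control, edgeR with TMM scaling) for the 87 tested chromatin genes and for all 12588 genes tested, with dotted lines at -1 and 1. The line of the chromatin genes is the steeper. With an adjusted p under 0.05 as well, which the lines do not ask for, 6.90% of them were under -1 against 17.3% of all genes. With library size alone 26 of them rose and 2 fell past both thresholds.

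Among the bromodomain readers, BRD2 and BRD8 rose past both thresholds, and the others described here moved less or did not pass the test. BRD2, a BET protein that binds acetylated histone tails and travels with transcribing polymerase, had 258, 223 and 244 normalized CPM in the Control libraries and 579, 555 and 596 in the ATRA libraries. Every ATRA library held more than 2 times the level of the highest Control library. The log2FC of BRD2 was 1.26 (SE 0.0630, adjusted p = 1.47e-12), edgeR's quasi-likelihood test. BRD3, a further BET protein, had 32.2, 29.7 and 34.1 in Control and 38.7, 36.1 and 38.95 in ATRA, a smaller rise with a log2FC of 0.25 (SE 0.0746, adjusted p = 0.00599) by edgeR.

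BRD8, a subunit of the TIP60 (NuA4) acetyltransferase complex, had 64.7, 62.7 and 68.1 normalized CPM in Control and 142, 129 and 143 in ATRA, with no overlap and a log2FC of 1.08 (SE 0.0619, adjusted p = 1.11e-11) by edgeR. BRD1, a scaffold of acetyltransferase complexes with KAT6 and KAT7 enzymes, rose from 26.6, 26.2 and 28.8 to 40.6, 40.97 and 40.5, with a log2FC of 0.58 (SE 0.0710). BRD7 and BRD9, subunits of PBAF and of the non-canonical BAF remodelling complex, did not pass the test. Their log2FC values were 0.031 (SE 0.0585) and -0.087 (SE 0.0709), and the Control and ATRA values of each overlapped. Of the 17 BET partners in elongation control (P-TEFb, super elongation complex and 7SK genes among them), none passed both thresholds upwards and 2 passed downwards, against 13.7% and 17.3% of all genes. These were ELL2, an elongation factor of the super elongation complex, with a log2FC of -1.68 (SE 0.0698), and HEXIM2, an inhibitor of P-TEFb, with -1.16 (SE 0.172). HEXIM2 had a mean of 5.57 normalized CPM in Control and 2.49 in ATRA. Its paralogue HEXIM1 rose by adjusted p only, from a mean of 69.5 to 127.8, with a log2FC of 0.88 (SE 0.0569). The 17 genes had a median log2FC of 0.02, beside 0.04 over all genes.

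The zinc-dependent deacetylases were mostly lower with ATRA. Of 11 HDAC genes matched by identifier, 7 fell and 3 rose by adjusted p, where 38.7% of all genes fell and 40.9% rose. Past the fold threshold 3 of the 11 fell and none rose, against 17.3% and 13.7% of all genes. The median log2FC of the 11 was -0.38, against 0.04 over all genes. It was 0.10 with library size alone, under which HDAC3, HDAC7 and HDAC8 turned upwards. HDAC9, a class IIa deacetylase that binds MEF2 factors, had the widest fall, from 40.2, 47.1 and 46.01 normalized CPM in the Control libraries to 6.92, 9.30 and 7.30 in the ATRA libraries. No ATRA value came near any Control value, and the log2FC was -2.503 (SE 0.105, adjusted p = 9.74e-14) by edgeR. HDAC6, a mostly cytoplasmic deacetylase of tubulin and other proteins, went from 32.2, 28.7 and 28.3 to 9.79, 9.59 and 9.06. Its 3 ATRA libraries were nearly level, and its log2FC was -1.65 (SE 0.0872, adjusted p = 3.36e-12). HDAC11, the class IV enzyme that removes fatty acyl groups from lysine, went from 22.8, 26.7 and 25.9 to 12.98, 11.04 and 11.5, with a log2FC of -1.09 (SE 0.0933, adjusted p = 4.57e-09). With library size alone, HDAC9 and HDAC6 still fell past the fold threshold, with log2FC values of -2.02 and -1.17, whereas HDAC11 no longer did, at -0.61.

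HDAC1 and HDAC2, the paired catalytic subunits of the NuRD, SIN3 and CoREST corepressor complexes, went different ways. HDAC1 had 104, 105 and 101 normalized CPM in Control and 54.8, 54.5 and 54.2 in ATRA, just short of the fold threshold at a log2FC of -0.92 (SE 0.0578, adjusted p = 4.32e-11) by edgeR. HDAC2 had 85.1, 88.2 and 83.2 in Control and 94.4, 93.7 and 99.99 in ATRA, with a log2FC of 0.17 (SE 0.0584, adjusted p = 0.0140). The groups of HDAC2 did not overlap, but its adjusted p was 0.0519 without Control replicate 1, 0.0771 without Control replicate 3 and 0.0999 without ATRA replicate 3. HDAC3, the deacetylase of the NCoR and SMRT corepressors that bind unliganded retinoic acid receptors, had 106, 101 and 101 in Control and 91.7, 86.8 and 89.4 in ATRA. Its log2FC of -0.20 (SE 0.0572, adjusted p = 0.00367) became 0.28 with library size alone. HDAC8, the last class I enzyme, had a log2FC of -0.38 (SE 0.179, adjusted p = 0.0598) with overlapping groups and of 0.10 with library size alone. It passed the test without Control replicate 1 and without ATRA replicate 3 (adjusted p = 0.0285 and 0.0283).

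In class IIa, HDAC5 fell from 98.8, 96.9 and 97.1 to 68.2, 71.7 and 68.3 normalized CPM, with a log2FC of -0.49 (SE 0.0576), a call lost with library size alone, at -0.013. HDAC7 had 83.5, 80.9 and 85.4 in Control and 65.7, 66.95 and 66.6 in ATRA, with a log2FC of -0.33 (SE 0.0585) that became 0.15 with library size alone. HDAC4 rose, from 18.7, 19.3 and 19.9 to 21.96, 23.2 and 23.6, with a log2FC of 0.25 (SE 0.0786). The 4 class IIa enzymes thus ranged from -2.50 to 0.25 in log2FC. HDAC10, a class IIb enzyme that acts on polyamines, also rose, from 9.02, 9.18 and 8.62 to 12.5, 11.2 and 11.4, with a log2FC of 0.39 (SE 0.101). Of the 21 tested partners of the HDAC complexes, 13 rose and 5 fell by adjusted p, with a median log2FC of 0.22. In each direction 1 of them passed the fold threshold. RCOR2, a CoREST scaffold that bridges KDM1A and HDAC1 or HDAC2, went from 2.84, 1.82 and 2.55 to 15.8, 14.9 and 15.5, with a log2FC of 2.68 (SE 0.137). CHD3, a remodelling ATPase of NuRD, went from 241, 222 and 245 to 91.2, 93.7 and 94.5, with a log2FC of -1.34 (SE 0.0574).

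**Figure D3:**
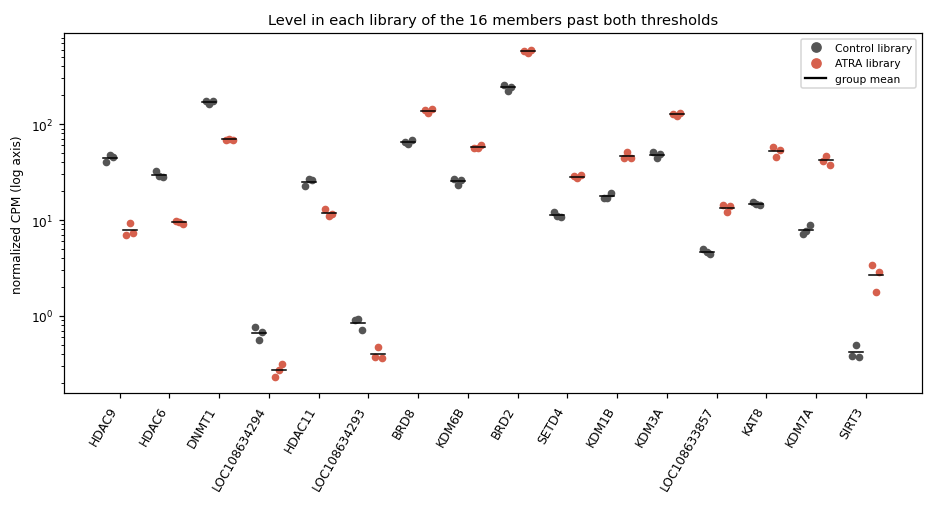
Normalized CPM (log axis) in each of the 3 Control and 3 ATRA libraries for the 16 genes past both thresholds, ordered by log2FC, with a bar at each group mean. The groups do not overlap in any of the 16 genes, which were picked by fold change and adjusted p in these same libraries. Over all genes tested 80.1% do not overlap. With library size alone DNMT1, HDAC11, LOC108634293 and LOC108634294 are still lower with ATRA but no longer pass both thresholds.

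Sirtuins, the NAD-dependent deacylases, split by gene. SIRT3, the main deacetylase of the mitochondrial matrix, had 0.387, 0.495 and 0.374 normalized CPM in the Control libraries and 3.42, 1.79 and 2.90 in the ATRA libraries, from 12, 16 and 12 counts to 148, 79 and 120. All ATRA values lay well above all Control values, though ATRA replicate 2 was the lowest of its group by a wide margin. The log2FC of 2.68 (SE 0.307, adjusted p = 2.36e-07) by edgeR was the largest among the 87 genes and rested on few counts in Control. SIRT5, a mitochondrial desuccinylase, rose from 18.5, 19.2 and 18.3 to 27.3, 27.2 and 28.8, with a log2FC of 0.57 (SE 0.0763). SIRT6, a nuclear enzyme at telomeres and repair sites, had 9.02, 9.09 and 8.65 in Control and 14.7, 11.2 and 13.1 in ATRA, with a log2FC of 0.54 (SE 0.111), and its adjusted p was 0.0578 with R's t.test function. SIRT2, a mostly cytoplasmic deacetylase, had 113, 100.005 and 106 in Control and 78.1, 72.8 and 80.4 in ATRA, with a log2FC of -0.46 (SE 0.0636) that was 0.015 with library size alone. SIRT1, SIRT4 and SIRT7 did not pass the test, with log2FC values of 0.080 (SE 0.0939), 0.12 (SE 0.204) and 0.0054 (SE 0.0850). SIRT1 had 24.5, 26.1 and 27.8 in Control and 27.6, 31.4 and 23.8 in ATRA, so its ATRA values spanned the whole Control range and more.

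Of 7 tested genes around NAD salvage, which supplies the sirtuins' cosubstrate, 3 rose and 1 fell past both thresholds, and the other 3 fell by adjusted p only, so that the median log2FC was -0.31 (0.17 with library size alone). NAMPT, which makes nicotinamide mononucleotide from nicotinamide, had 36.6, 39.2 and 36.7 normalized CPM in Control and 276, 314 and 282 in ATRA, with a log2FC of 2.95 (SE 0.0664, adjusted p = 8.50e-18) by edgeR. NMNAT2, which turns the mononucleotide into NAD, rose by a log2FC of 2.25 (SE 0.108), and NAPRT, the entry enzyme for nicotinic acid, by 1.35 (SE 0.186). PARP1, a large consumer of NAD at DNA breaks, had a log2FC of -1.22 (SE 0.0574), which was -0.74 with library size alone.

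All 7 KAT genes that the name rule took passed the test by adjusted p, 5 upwards and 2 downwards, where 40.9% of all genes rose and 38.7% fell. KAT8 (MOF), which acetylates histone H4, had 15.3, 14.6 and 14.2 normalized CPM in the Control libraries and 57.5, 45.1 and 53.9 in the ATRA libraries. The lowest ATRA library held over 2 times the highest Control value, and the log2FC was 1.83 (SE 0.0908, adjusted p = 1.30e-12) by edgeR. No other gene of the 7 reached the fold threshold. KAT6B (MORF) and KAT7 (HBO1), catalytic subunits of complexes that also hold BRD1, rose by log2FC values of 0.56 (SE 0.0903) and 0.49 (SE 0.0582). KAT6A (MOZ) and KAT5 (TIP60) had 0.21 (SE 0.0695) and 0.19 (SE 0.0757). The call of KAT6A was lost without Control replicate 1 (adjusted p = 0.0712), and that of KAT5 in all 6 fits that left out a library (adjusted p from 0.0511 to 0.108). KAT2B (PCAF), an acetyltransferase recruited by liganded nuclear receptors, went from 129, 127 and 139 to 88.9, 96.6 and 90.2, with a log2FC of -0.52 (SE 0.0600, adjusted p = 2.49e-07) that was -0.043 and no longer passed the test with library size alone. Its paralogue KAT2A (GCN5) went from 41.1, 34.6 and 39.9 to 29.1, 27.5 and 30.9, with a log2FC of -0.40 (SE 0.0803) that became 0.076 with library size alone.

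Of 12 acetyltransferase genes that the name rule left out, 7 rose and 3 fell by adjusted p, with a median log2FC of 0.23. The coactivators EP300 and CREBBP were among them, and so was KAT14, which rose by a log2FC of 0.65 (SE 0.0629). NCOA3, a coactivator of nuclear receptors, went from 72.2, 74.3 and 79.7 to 166, 196 and 179.6 normalized CPM, with a log2FC of 1.26 (SE 0.0674). ESCO2, which acetylates cohesin during DNA replication, went from 4.57, 4.92 and 4.36 to 0.717, 0.521 and 0.725, with a log2FC of -2.81 (SE 0.206). Of 8 genes that supply acetyl-CoA and alpha-ketoglutarate, 2 rose and 6 fell by adjusted p, with a median log2FC of -0.36 (0.12 with library size alone). Of these IDH1, the cytosolic isocitrate dehydrogenase, alone passed both thresholds, with a log2FC of -1.497 (SE 0.0610).

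Lysine methyltransferases were mostly higher. Of 19 KMT, SETD and EZH genes matched by identifier, 15 rose and 2 fell by adjusted p, where 40.9% of all genes rose and 38.7% fell. Past the fold threshold 1 of the 19 rose, against 13.7% of all genes, and the median log2FC of the 19 was 0.43. With library size alone 6 of the 19 rose past the fold threshold and the median was 0.91. Among them, 6 of 7 KMT2 and SETD1 genes, most of which methylate H3K4 at promoters and enhancers, rose. KMT2C, an enhancer enzyme, had 38.9, 38.1 and 48.9 normalized CPM in Control and 69.7, 79.03 and 65.1 in ATRA, with a log2FC of 0.76 (SE 0.0920). KMT2D, its paralogue, had 63.9, 55.1 and 70.9 in Control and 102, 111 and 102 in ATRA, with a log2FC of 0.73 (SE 0.0778). In both genes the groups lay apart. KMT2A (MLL1) had 0.51 (SE 0.0777), SETD1A 0.44 (SE 0.0738), SETD1B 0.52 (SE 0.0841) and KMT2E 0.30 (SE 0.0679) in log2FC. KMT2B had 42.01, 39.04 and 46.6 in Control and 44.3, 46.3 and 47.5 in ATRA, with overlapping groups and a log2FC of 0.11 (SE 0.0741, adjusted p = 0.168) by edgeR. Of 12 subunits of the COMPASS complexes, some shared, such as WDR5 and ASH2L, and some of single complexes, 2 rose and 5 fell by adjusted p. Their median log2FC was -0.07 (0.40 with library size alone). PAGR1, a subunit of the KMT2C and KMT2D complexes, fell from 21.6, 19.5 and 18.96 to 10.3, 8.43 and 9.04, with a log2FC of -1.11 (SE 0.0996).

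SETD4, a SET-domain methyltransferase linked to quiescent cells, had 12.02, 11.1 and 10.6 normalized CPM in Control and 28.8, 27.2 and 29.4 in ATRA, a log2FC of 1.34 (SE 0.0847, adjusted p = 5.01e-11) by edgeR. It was the one methyltransferase of the 19 past both thresholds with TMM scaling. SETD6, which methylates the NF-kappaB subunit RELA, rose from 8.05, 7.88 and 7.35 to 12.9, 12.8 and 15.1, with a log2FC of 0.81 (SE 0.106). SETD5, SETD3 (an actin histidine methyltransferase) and SETD2 (which places the third methyl group on H3K36) rose by log2FC values of 0.43 (SE 0.0602), 0.31 (SE 0.0751) and 0.18 (SE 0.0557). SETD9, at most 2.10 normalized CPM in any library, had 0.52 (SE 0.230, adjusted p = 0.0476), and lost its call without Control replicate 2, Control replicate 3, ATRA replicate 1 and ATRA replicate 3 in turn (adjusted p from 0.0736 to 0.177). SETD7, which methylates H3K4 once and several non-histone proteins, fell from 108, 116 and 130.002 to 63.7, 93.7 and 76.3. The ATRA values ranged widely yet stayed below all Control values, and the log2FC was -0.60 (SE 0.114, adjusted p = 2.97e-04), or -0.12 and not past the test with library size alone. Among the H4K20 enzymes, KMT5B and KMT5C rose by log2FC values of 0.37 (SE 0.0787) and 0.35 (SE 0.116), and KMT5A, which places the first methyl group, had 0.11 (SE 0.0662, adjusted p = 0.153) with overlapping groups. KMT5C lost its call without ATRA replicate 1 (adjusted p = 0.0532).

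The Polycomb methyltransferases moved in opposite directions. EZH2, the H3K27 methyltransferase of dividing cells, went from 72.5, 64.2 and 65.8 normalized CPM in Control to 42.2, 40.8 and 40.6 in ATRA, with a log2FC of -0.71 (SE 0.0669, adjusted p = 1.62e-08) by edgeR. EZH1, its paralogue in non-dividing cells, went from 42.2, 37.7 and 39.8 to 76.3, 70.99 and 73.8, with a log2FC of 0.88 (SE 0.0665, adjusted p = 6.66e-10). Neither passed the fold threshold, and the groups were apart in both. Of the 9 other PRC2 subunits tested, PHF1 and JARID2 rose past both thresholds, with log2FC values of 1.77 (SE 0.0634) and 1.13 (SE 0.116), and PHF19 and RBBP7 fell past both, with -1.88 (SE 0.0870) and -1.22 (SE 0.0554). PHF1 and PHF19 are alternative Polycomb-like subunits, and JARID2 helps to recruit the complex. Of 18 subunits of PRC1, the other Polycomb complex, CBX7 and CBX6 rose past both thresholds, with log2FC values of 1.96 (SE 0.0758) and 1.72 (SE 0.0723). CBX2 fell past both, with -1.10 (SE 0.200). The median log2FC was -0.18 for the PRC2 subunits (0.30 with library size alone) and 0.29 for the PRC1 subunits.

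A list of 12 lysine methyltransferases that the name rule left out did not hold all such genes. In this list 4 rose and 6 fell by adjusted p, with a median log2FC of -0.13 (0.35 with library size alone). DOT1L, the H3K79 methyltransferase, had 28.8, 27.9 and 31.01 normalized CPM in Control and 172, 167 and 174 in ATRA, a log2FC of 2.55 (SE 0.0634, adjusted p = 3.63e-17) by edgeR. SUV39H1, which trimethylates H3K9 in heterochromatin, was not among the 12 but in the list of H3K9 genes below. It went from 16.9, 14.1 and 15.7 to 1.90, 1.27 and 1.69, with a log2FC of -3.26 (SE 0.145). EHMT2 (G9a), which places the H3K9 dimethyl mark and was in both lists, had a log2FC of -1.45 (SE 0.0662). SMYD2 and SMYD4, of the SMYD family, had log2FC values of -2.54 (SE 0.0995) and -1.96 (SE 0.0809). In a list of 10 genes, which were H3K9 methyltransferases, HP1 proteins and TRIM28, 2 rose and 7 fell by adjusted p. The median log2FC was -0.40 (0.079 with library size alone). TRIM28 was the one that did not pass the test, with a log2FC of 0.11 (SE 0.0569, adjusted p = 0.0729) by edgeR.

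Most lysine demethylases were higher with ATRA. Of 15 tested KDM genes that the name rule matched by identifier, 12 rose, 1 fell and 2 did not pass by adjusted p. Of all genes 40.9% rose and 38.7% fell. Past the fold threshold 4 of the 15 rose, against 13.7% of all genes. The median log2FC of the 15 was 0.75, against 0.04 over all genes. It was 1.23 with library size alone, against 0.52, where 9 rose past the fold threshold. KDM7A, an eraser of H3K9 and H3K27 dimethylation, had 7.18, 7.70 and 8.87 normalized CPM in the Control libraries and 41.8, 47.1 and 37.96 in the ATRA libraries. The lowest ATRA library was more than 4 times the highest Control library, and the log2FC was 2.42 (SE 0.101, adjusted p = 9.84e-14) by edgeR. KDM3A, an H3K9 demethylase and coactivator of nuclear receptors, went from 51.03, 44.6 and 48.97 to 128, 122 and 129, with a log2FC of 1.39 (SE 0.0644, adjusted p = 4.39e-13). KDM1B (LSD2), a flavin-dependent H3K4 demethylase, went from 17.04, 17.1 and 19.3 to 44.2, 51.3 and 44.9, with a log2FC of 1.39 (SE 0.0834, adjusted p = 2.17e-11). All 3 ATRA libraries held more than 2 times the highest Control level in both genes.

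KDM6B (JMJD3) and KDM6A (UTX), which erase H3K27 trimethylation, rose together. KDM6B had 27.03, 23.3 and 26.4 normalized CPM in Control and 56.8, 56.8 and 60.1 in ATRA, with a log2FC of 1.18 (SE 0.0739, adjusted p = 4.42e-11) by edgeR. KDM6A had 18.8, 19.7 and 21.2 in Control and 37.9, 41.99 and 37.5 in ATRA, with a log2FC of 0.98 (SE 0.0791, adjusted p = 1.93e-09), just under the fold threshold, and passed it without Control replicate 3 (log2FC 1.02). Of the KDM5 family, erasers of H3K4 trimethylation, KDM5B rose from 69.01, 70.6 and 68.5 to 135, 136 and 137, a log2FC of 0.97 (SE 0.0555, adjusted p = 1.11e-11) just under the threshold. KDM5A and KDM5C rose by log2FC values of 0.65 (SE 0.0928) and 0.51 (SE 0.0546). KDM2A, an H3K36 demethylase that binds unmethylated CpG islands, rose by 0.81 (SE 0.0580), whereas its paralogue KDM2B, which brings a PRC1 complex to such islands, had -0.019 (SE 0.0736, adjusted p = 0.815) with overlapping groups. The KDM4 family, erasers of H3K9 and H3K36 trimethylation, was divided. KDM4A fell from 129.994, 129.9 and 135 to 78.7, 81.8 and 80.8, with a log2FC of -0.71 (SE 0.0557, adjusted p = 1.22e-09), KDM4B rose by 0.75 (SE 0.0743) and KDM4C had 0.12 (SE 0.0786, adjusted p = 0.173). KDM1A (LSD1) and KDM3B rose by 0.35 (SE 0.0584) and 0.25 (SE 0.0701) in log2FC. Of 9 further genes with a JmjC domain, 5 rose and 2 fell by adjusted p and none passed the fold threshold, with a median log2FC of 0.44. KDM8, which the name rule left out, was among the 2 that fell. Its log2FC was -0.64 (SE 0.246, adjusted p = 0.0233) by edgeR, with overlapping groups.

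In DNA methylation, the maintenance enzyme fell and the de novo enzyme DNMT3A rose. DNMT1, which copies methylation onto the new strand at replication forks, went from 173, 163 and 176 normalized CPM in the Control libraries to 69.1, 69.7 and 68.9 in the ATRA libraries. The ATRA libraries were nearly level and far below all Control libraries, with a log2FC of -1.30 (SE 0.0568, adjusted p = 1.83e-13) by edgeR and of -0.82 with library size alone, still a fall but short of the fold threshold. DNMT3A went from 25.9, 23.6 and 27.2 to 46.8, 46.999 and 46.3, with a log2FC of 0.87 (SE 0.0729, adjusted p = 3.20e-09). DNMT3B, the other de novo enzyme, was scarce, with 1.80, 1.298 and 1.09 in Control and 0.995, 0.884 and 0.991 in ATRA, and did not pass the test, with a log2FC of -0.54 (SE 0.261, adjusted p = 0.0641), but did without Control replicate 3, with -0.70 (adjusted p = 0.0339). TET1, which oxidises methylated cytosine, fell from 4.57, 4.92 and 4.89 to 2.43, 2.81 and 2.42, with a log2FC of -0.91 (SE 0.154, adjusted p = 3.08e-05). TET3 had 19.8, 17.9 and 21.3 in Control and 17.3, 17.3 and 17.8 in ATRA, and its log2FC of -0.17 (SE 0.0862, adjusted p = 0.0721) was 0.30 with library size alone and passed the test without Control replicate 2 (adjusted p = 0.0212). TET2 had overlapping groups and a log2FC of 0.053 (SE 0.0909, adjusted p = 0.602).

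UHRF1, which brings DNMT1 to freshly replicated DNA, fell from 46.4, 45.4 and 46.5 to 1.62, 1.70 and 2.13 normalized CPM, with a log2FC of -4.67 (SE 0.105, adjusted p = 8.54e-18) by edgeR. HELLS, a remodelling factor needed for methylation of repeats, had a log2FC of -1.504 (SE 0.0876), and GADD45B, which has been linked to active demethylation, had -2.56 (SE 0.0798). GADD45B had a mean of 47.5 normalized CPM in Control and 8.07 in ATRA. Its paralogue GADD45A rose from a mean of 199.9 to 399.4, with a log2FC of 0.999 (SE 0.0589), just under the fold threshold. Over the 12 tested partners and readers of DNA methylation, however, 7 rose and 5 fell by adjusted p, with a median log2FC of 0.28. Of 15 genes of chromatin assembly at replication forks, 11 fell and 3 rose by adjusted p, with a median log2FC of -0.45 (0.028 with library size alone). UHRF1, HELLS, RBBP4 and HAT1 are in this list and in another, so their falls are counted in both. CHAF1A, the large subunit of the assembly factor CAF-1, had a log2FC of -3.44 (SE 0.113), and PCNA, the sliding clamp, had -1.496 (SE 0.0769). ASF1B, the histone chaperone of proliferating cells, went from 16.3, 12.98 and 14.6 to 0.231, 0.136 and 0.121, with a log2FC of -6.46 (SE 0.210), while its paralogue ASF1A rose by 1.09 (SE 0.105).

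Arginine methyltransferases were mostly lower. Of 7 tested PRMT genes 5 fell and none rose by adjusted p, where 38.7% of all genes fell and 40.9% rose. None of the 7 passed the fold threshold, and their median log2FC was -0.52, though it was -0.045 with library size alone. PRMT1, which places most asymmetric dimethylarginine, went from 203, 186 and 190.3 normalized CPM to 136, 123 and 135, with a log2FC of -0.56 (SE 0.0595, adjusted p = 9.76e-08) by edgeR. PRMT5, the main symmetric enzyme, went from 80.8, 75.6 and 77.3 to 54.1, 55.4 and 53.02, with a log2FC of -0.52 (SE 0.0609, adjusted p = 2.96e-07). PRMT3, which methylates a ribosomal protein, and PRMT7, which makes monomethylarginine, fell by more, with log2FC values of -0.81 (SE 0.0790) and -0.74 (SE 0.0834). With library size alone PRMT1 and PRMT5 were at -0.078 and -0.045 and did not pass the test, and PRMT2, at -0.22 (SE 0.0752), turned to 0.26. PRMT2 also lost its call without Control replicate 2 (adjusted p = 0.0533). PRMT6 and PRMT9 had overlapping groups and log2FC values of 0.084 (SE 0.0925) and 0.024 (SE 0.0983). The methionine cycle supplies the methyl donor of all these methyltransferases. Of 11 genes listed around it, which include folate enzymes, 4 rose and 6 fell by adjusted p. Their median log2FC was -0.47 (0.0083 with library size alone). The folate enzyme SHMT1 and the AHCY-like gene AHCYL2 rose past both thresholds, with log2FC values of 1.48 (SE 0.0836) and 1.39 (SE 0.0813). MTHFD1, also a folate enzyme, fell past both, with -1.15 (SE 0.0703). Among the partner genes named above, HEXIM2, CHD3, PARP1, PAGR1, RBBP7, CBX2, EHMT2 and MTHFD1 stayed lower but no longer passed the fold threshold with library size alone.

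**Figure D4:**
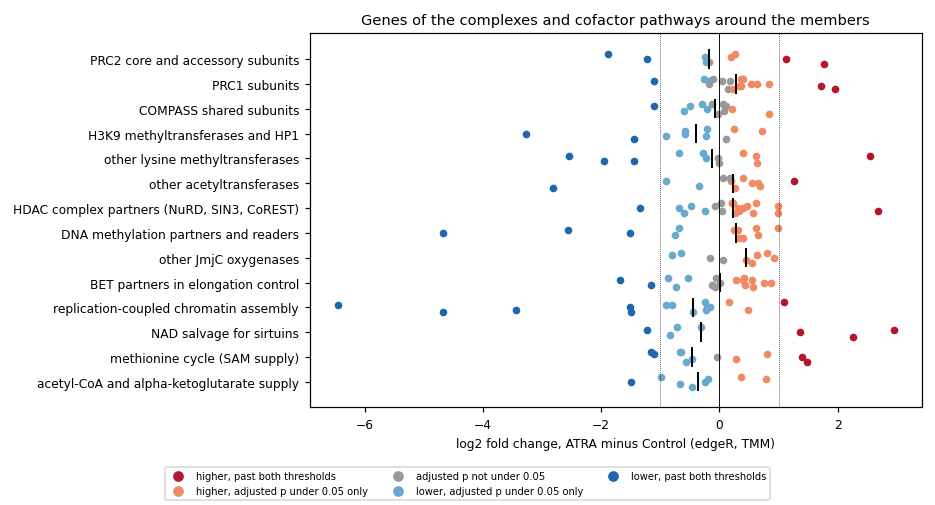
Each point is the log2FC (ATRA minus Control, edgeR with TMM scaling) of a tested gene in 1 of 14 lists of complex partners and cofactor genes, with a bar at each list's median. The list labelled COMPASS shared subunits also holds subunits of single complexes, and the methionine cycle list also holds folate enzymes. Some genes stand in more than 1 list, UHRF1 and HELLS among them. The widest falls are in replication-coupled assembly and DNA methylation partners (ASF1B at -6.46, UHRF1 at -4.67), and the medians below 0 turn positive with library size alone.

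Whether paralogues changed in balance was read from the ratio of their counts within each library, which no scaling of a library can alter. Transcript lengths were not used, so a ratio does not rank the levels of both genes, but its shift with ATRA can be compared. In 7 of 10 pairs the Control and ATRA ratios did not overlap, at p = 0.1 in an exact two-sided permutation test, the smallest p that 3 against 3 libraries allow, and 0.143 after adjustment over the 10 pairs. No pair could therefore pass a threshold of 0.05. The share of other gene pairs whose ratios do not overlap was not computed, and of single genes tested 80.1% did not overlap. The log2 ratio of DNMT3A to DNMT1 was -2.74, -2.78 and -2.69 in the Control libraries and -0.56, -0.57 and -0.57 in the ATRA libraries, a shift of 2.17 (SE 0.0259). That of EZH1 to EZH2 was -0.78, -0.77 and -0.72 and 0.86, 0.80 and 0.86, a shift of 1.59 (SE 0.0258). In both pairs the shift was many times the spread within either group. BRD2 shifted against BRD3 by 1.01 (SE 0.0486). HDAC5 against HDAC4 shifted by -0.74 (SE 0.0472), SIRT1 against SIRT2 by 0.54 (SE 0.180) and KMT5A against KMT5B by -0.27 (SE 0.109). The ratios overlapped for KDM6B to KDM6A, with a shift of 0.20 (SE 0.111), for TET2 to TET3, with 0.23 (SE 0.12503), and for KAT2B to KAT2A, with -0.12 (SE 0.104).

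**Figure D5:**
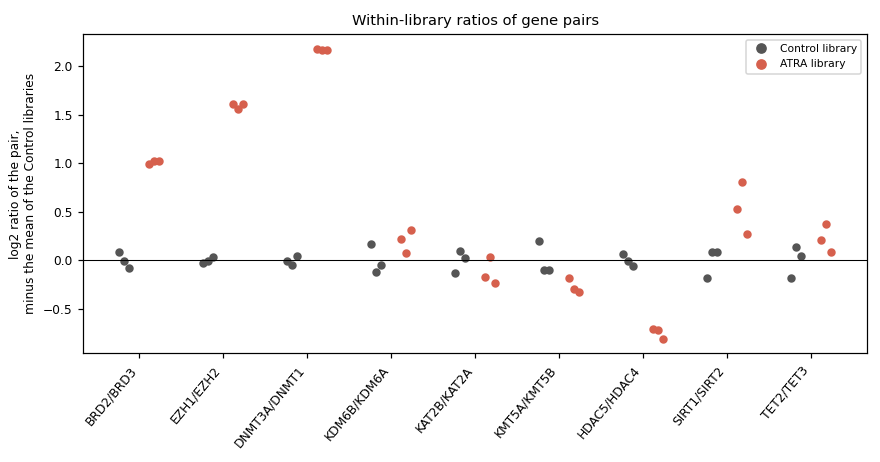
Within-library log2 ratio of counts for 9 of the 10 gene pairs, less the mean of the 3 Control libraries, with 1 point per library. DNMT3A to DNMT1 shifts by 2.17 and EZH1 to EZH2 by 1.59, while the Control and ATRA points overlap for KDM6B to KDM6A, KAT2B to KAT2A and TET2 to TET3.

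The 8 rows matched by symbol alone have to be read with care, since they are unnamed loci and reads may be split between each of them and its namesake. LOC108633857 carries the symbol of KDM2B but is described in the table as collagen alpha-2(I)-like. It rose from 4.96, 4.70 and 4.39 to 14.2, 12.04 and 14.2 normalized CPM, with a log2FC of 1.52 (SE 0.116), unlike KDM2B itself, and counts among the 10 rises only by the name rule. LOC108634293 and LOC108634294, both HDAC6-like, fell with log2FC values of -1.07 (SE 0.318) and -1.29 (SE 0.359), from below 1 normalized CPM in every Control library, and with library size alone they had -0.59 and -0.82 and no longer passed both thresholds. LOC108633232, SETD3-like, rose by 0.39 (SE 0.117) in log2FC. The 4 others, which were 2 BRD8-like loci, 1 HDAC8-like and 1 under the symbol BRD9, did not pass the test and had overlapping groups. Of these, LOC108633314 (BRD8-like) and LOC108635005 (BRD9) passed it without ATRA replicate 2 (adjusted p = 0.0220 and 0.0431). Without the 8 rows, 9 of 79 genes rose and 4 fell past both thresholds.

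The median coefficient of variation of the 87 genes between libraries was 6.52% in Control and 4.497% in ATRA, against 6.27% and 6.9995% over all genes tested. Their mean levels ran up to 408.9 normalized CPM with a median of 33.4, against a median of 27.3 over all genes.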

How the data were processed

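Total RNA was extracted with TRIzol and poly(A) RNA-seq libraries were made from 3 Control and 3 ATRA cultures. The submitters' processing notes name HISAT2, featureCounts and DESeq2, and the study's methods name fastp and TrimGalore for read cleaning. The genome build, annotation and strand setting were not given in the sources used here. The authors deposited counts, 1 whole number per gene and library for 15944 genes, without normalization, beside annotation columns of gene names and descriptions. No per-sample column was left unused, and the study's qRT-PCR, protein and cell assays were not analysed here.

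All genes were fitted together in edgeR 4.0.16 (R 4.3.3) with TMM scaling, the filterByExpr filter (12588 genes kept), robust quasi-likelihood dispersions and treatment as the one term, and p-values were adjusted by the Benjamini-Hochberg method over all genes tested. R's t.test function, the test of the study's methods, served as an alternative on log2(CPM + 1). A gene was called past both thresholds at an absolute log2FC above 1 and an adjusted p under 0.05. The standard error is the absolute log2FC divided by the square root of F. Ratios within a library used counts plus 0.5, compared by an exact two-sided permutation test over the 6 libraries in scipy 1.17.1.

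The genes of interest, the 14 lists of partner genes, the 10 pairs and the marker lists were chosen with earlier results of these data known, so their counts are descriptions. Genes past both thresholds were to be named, together with the BET, EZH, DNMT, TET, HDAC, SIRT and KDM6 genes and the pairs whatever their value, and up to 4 genes per partner list by absolute log2FC. HEXIM1 and GADD45A are named beside their paralogues. The other members are named to account for the rest of the 89, and results of some genes are not reported here. In the partner lists, NSD2, NSD3 and RIOX2 were matched under the older symbols WHSC1, WHSC1L1 and MINA.

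Libraries with the same number were checked for pairing: the correlations of their deviations from the group means were 0.089, 0.030 and -0.076, so the numbers were not treated as pairs. No 2 libraries of a group agreed within sampling noise, where the chi-square divided by its degrees of freedom ran from 5.16 to 19.2. Alternatives were other scalings, filters and offsets, a replicate block, leaving out each library in turn, DESeq2 1.42.0 and other thresholds. The fits were tested on simulated data with known changes. Depth per library was 35532339 to 38012771 counts, which limits the genes under about 1 normalized CPM most. No reference sequence was used here.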

Additional observations from a re-analysis of the deposited data

How the results depend on the processing

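With library size alone, the chromatin genes past both thresholds were 26 higher and 2 lower, all genes called higher were 3389, and the chromatin genes' median log2FC was 0.69 (0.29 with upper-quartile scaling). TET3 (0.30), HDAC3 (0.28), HDAC7 (0.15), SIRT2 (0.015), KAT2A (0.076), PRMT2 (0.26), KDM2B (0.46), BRD9 (0.39), HDAC8 (0.097) and LOC102186477 (0.43) then changed sign. By adjusted p alone the counts were 46 higher and 22 lower among the chromatin genes and 5151 and 4877 among all genes, and with an absolute log2FC above 2 they were 2 and 1, and 669 and 1035. R's t.test function called 1090 genes higher. The causes were not tested. Leaving out each library in turn gave 10 to 11 chromatin genes higher and 6 lower, 1713 to 1807 and 2187 to 2244 of all genes, and a median of 0.19 to 0.26. With the replicate block, 10 chromatin genes were higher and 6 lower, the same 16 genes as without it, and SETD9 alone lost its adjusted p (0.0524). The same-numbered libraries did not deviate together, so the block was not used in the reported values. Of 1214 values for 87 genes under the alternatives, 1142 kept their side of the adjusted p threshold, 37 lost it, 27 gained it and 8 reversed past it in 1 or both fits. Among the 1142, 23 values of 11 genes not past the threshold in either fit changed sign, all else keeping its direction. Depth limits SIRT3 in Control and the unnamed HDAC6-like and BRD8-like loci, which had few counts.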

Other observations

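Control replicate 3 was the highest of its group for 40 of the 87 tested chromatin genes (46.0%), against 34.2% of all genes tested, and ATRA replicate 2 was the highest of its group for 34 (39.1%), against 38.3%. KMT2A, KMT2C, KMT2D and KMT2E were highest in Control replicate 3 and in ATRA replicate 2, and so was KDM5A. The pattern was not particular to these genes, as KDM6A, KDM7A, KAT6B and SETD7, among others, also had it.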
